A study of Mus musculus with 11 samples.

Results

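The genes described are 10 members of the immunoreceptor system through which microglia read antibody and lipid ligands. They comprised the activating Fcγ receptors Fcgr1, Fcgr3 and Fcgr4, the inhibitory Fcγ receptor Fcgr2b, the TREM receptors Trem1, Trem2 and Trem3, the adaptors Fcer1g and Tyrobp, and the kinase Syk. Members were chosen by name, by matching the RefSeq accession that each array probe carries to a gene symbol. Of the 10 genes, 9 had a matched probe (16 probes in all), and Trem3 was not analysed here for want of one. All 9 had at least 1 probe past the filter on dim signals (13 probes) and were tested among 19555 genes.

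Activating Fc receptors and TREM receptors have short cytoplasmic tails and signal through partner proteins that carry an immunoreceptor tyrosine-based activation motif (ITAM). Fcer1g, the common Fc receptor γ chain, serves the activating Fcγ receptors, and Tyrobp (DAP12) serves the TREM receptors. When the receptors are clustered, Src-family kinases phosphorylate the ITAM and Syk docks on it and starts phagocytosis and cytokine release. Fcgr2b carries an inhibitory motif (ITIM) instead and recruits phosphatases that restrain the same pathway. In the brain, Trem2 is known as a microglial lipid and lipoprotein receptor, whereas Trem1 is best known from neutrophils and monocytes.

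RNA of microglia from C57BL/6N mice was measured on 11 single-colour arrays in 4 groups. A_FACS (2 arrays) held microglia of adult females aged 12 to 24 weeks, and NB_FACS (3 arrays) held those of newborns of both sexes at postnatal days 1 to 3. Both were freshly sorted as CX3CR1-high cells with intermediate CD45, after an antibody had blocked CD16 and CD32, the proteins of Fcgr3 and Fcgr2b. NB_Control and NB_Stim (3 arrays each) were microglia of newborns that were shaken off mixed flask cultures of 2 to 3 brains. By the study's shaking protocol this took place weeks after the brains were taken. The flasks had been fed 20% L-929 conditioned medium, a source of M-CSF. The shaken-off cells were then kept for 1 day in DMEM/F12 with 10% serum. For NB_Stim that day included human CX3CL1, IL-34 and TGF-β1, each added to 100 ng/mL, and NB_Control received none. The cultured cells were neither sorted nor blocked, so culture, weeks in mixed flasks, time since birth and isolation method cannot be told apart, nor can age and sex in the adults.

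The array reads each transcript with 1 short designed oligonucleotide per probe. The probes of the 9 members were 45 to 57 bases long, and because the Fcγ receptors are close relatives, they were compared with each other. No 2 probes of different members shared a run of more than 9 identical bases. This compared probes with probes and not with transcripts. For 5 of the members, 1 probe each is shown 5′ to 3′ as an example of what was read, and the capitals mark its longest run shared with a probe of another member.
Fcgr2b, probe MMXS08004: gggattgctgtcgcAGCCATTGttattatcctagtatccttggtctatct
Fcgr3, probe MMXS45897: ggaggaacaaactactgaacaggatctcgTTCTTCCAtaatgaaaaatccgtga
Trem1, probe MMXS31605: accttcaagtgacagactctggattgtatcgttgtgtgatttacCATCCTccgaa
Tyrobp, probe MMXS40980: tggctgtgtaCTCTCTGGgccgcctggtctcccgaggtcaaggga
Syk, probe MMXS57255: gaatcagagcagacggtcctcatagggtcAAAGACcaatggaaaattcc

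Fcgr3 had a second, dim probe (MMXS43008) of 48 bases, of which 27 bases, aacagcatcgaatcaagactcggggca, matched the beginning of the RefSeq promoter window of that gene on the same strand. It was well above background on 1 of the 11 arrays, A_FACS replicate 2. Of the values below it entered only those without A_FACS replicate 1 and those with no filter on dim probes. Likewise 1 Syk probe and 1 Trem1 probe were well above background on none.

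Promoter windows of RefSeq (GRCm38.p6, 250 bases before to 50 after a start site) were found for 8 of the 10 members, in 10 windows. Motifs known from myeloid and interferon-responsive promoters were searched on both strands. GAGGAA, the core of sites for the myeloid factor PU.1, lay in 7 of the 10 windows, those of Fcgr1, Fcgr3, Fcgr4, Syk, Trem1 and Trem2, and in 28.3% of all 32851 windows. The Fcgr3 windows overlap and hold the same match, so the 7 windows are not independent. TTCNNNGAA lay in those of Fcgr1 and Trem1 (8.3% of all windows), an interferon-stimulated response element in that of Fcgr4 (3.44%) and CACGTG in 0 of the 10 (7.15%). The stretches of 40 bases before the start that hold GAGGAA in the activating Fcγ receptor genes are shown with the match in capitals, which reads TTCCTC because it lies on the other strand.
Fcgr1, chr3:96294002-96294041, minus strand: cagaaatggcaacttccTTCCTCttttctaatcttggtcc
Fcgr3, chr1:171059395-171059434, minus strand: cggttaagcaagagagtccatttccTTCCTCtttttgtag
Fcgr4, chr1:171018886-171018925, plus strand: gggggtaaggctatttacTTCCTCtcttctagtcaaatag

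The matches begin 55, 15 and 22 bases before the start sites. They describe the letters of the windows, and binding was not measured.

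The share of probes that cleared the background clearly ranged from 66.8% to 80.4% between arrays, and the number of arrays limits the precision. Levels below are quantile-normalised log2 signals, averaged over the probes of a gene and printed array by array, in the order of replicates 1, 2 and 3. Replicate 3 of each newborn group lay on slide 2, and the other 8 arrays on slide 1. Of 11 microglial markers 9 had a probe, and their mean level was 12.53 to 12.80 in A_FACS, 11.38 to 11.63 in NB_FACS, 10.11 to 10.19 in NB_Stim and 8.09 to 8.79 in NB_Control. Gpr34 was not well above background on any newborn array. Fibroblast markers averaged 8.71 to 9.40 on the cultured arrays, 5.94 to 6.20 in NB_FACS and 3.17 to 3.79 in A_FACS. Border macrophage markers averaged 8.23 to 8.90 in NB_FACS, 8.53 to 9.14 in NB_Control, 7.07 to 7.20 in NB_Stim and 5.39 to 6.47 in A_FACS. These means cover opposite moves. Of 9 tested, 3 were higher and 3 lower in NB_Control than in NB_FACS, where 29.7% of all genes passed. Ms4a7 (log2 difference 6.66) and Pf4 (4.71) were among the former, and Lyve1 (-4.81) and Cbr2 (-3.15) among the latter. With cytokines 1 passed, Mrc1 (-5.24), beside 3.41% of all genes. The mean of the 11 measured neutrophil markers stood apart on 1 array, NB_FACS replicate 3, at 8.34 against 4.99 to 6.34 on the other 10 arrays. Cxcr2 (6.51), Elane (9) and Mmp8 (5.37) were not highest on it. Cxcr2 read 6.74 on NB_FACS replicate 1, and Elane and Mmp8 read 9.7 and 6.76 on NB_Control replicate 3. The other markers were highest on NB_FACS replicate 3, Mpo by little (4.96 against 4.79 on NB_Stim replicate 3). The part of these cells in the results was not tested.

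Untreated cultured cells, NB_Control, held more RNA of the IgG receptors Fcgr4, Fcgr2b and Fcgr3 and of both adaptors than sorted newborn cells. Trem1 is counted apart throughout, because it passed the filter only through NB_FACS, the group where it was highest, and lay largely below the measurable range elsewhere. In NB_Control against NB_FACS, 5 of the other 8 members passed the test (adjusted p under 0.05), all higher, where 29.7% of all genes did. That count was 2 without NB_Control replicate 1 or 2 or NB_FACS replicate 2 (23.2%, 23% and 23.1% of all genes). It was also 2 without NB_FACS replicate 3 (33%), and 3 without NB_FACS replicate 1 (23.5%). With cytokines, NB_Stim against NB_Control, 1 of 8 passed, Fcgr4 lower, beside 3.41% of all genes. It was 0 without NB_Control replicate 1 or 2 or any 1 NB_Stim array (1.51% to 3.11% of all genes). The count was 3 without NB_Control replicate 3 (2.64%) and 2 without NB_FACS replicate 3 (3.51%). With the replicate number as a block it was 3 (6.1%). NB_Stim against NB_FACS gave 3 of 8 (Fcgr2b, Fcgr4 and Tyrobp, all higher) beside 31.1%, or 5 beside 40% with that block.

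With age, A_FACS against NB_FACS, 3 of 8 passed (Fcgr1, Fcgr2b and Fcgr3, all higher) beside 22.7% of all genes. These calls rest on 2 adult arrays. A_FACS against NB_Control gave 3 of 8 (Fcgr1 higher, Fcgr2b and Fcgr4 lower) beside 40.8%, or 5 beside 49.5% with the replicate number as a block. A_FACS against NB_Stim gave 6 of 8, all but Trem2 and Fcer1g, beside 40.2%. Without NB_Stim replicate 2 this last count was 3 (32.6% of all genes). Leaving out A_FACS replicate 1 leaves 1 adult array. The log2 differences were then 0.68 for Fcgr3 and Syk, -1.25 for Fcgr4, -0.47 for Fcgr2b and -0.42 for Tyrobp. That of Fcgr1 was 1.16 to 1.24 without any 1 array. Comparisons with a group in common share its arrays and are not independent of each other. Since the arrays read bulk RNA, fewer cells of a type and less RNA per cell cannot be told apart in any of these values.

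**Figure D1:**
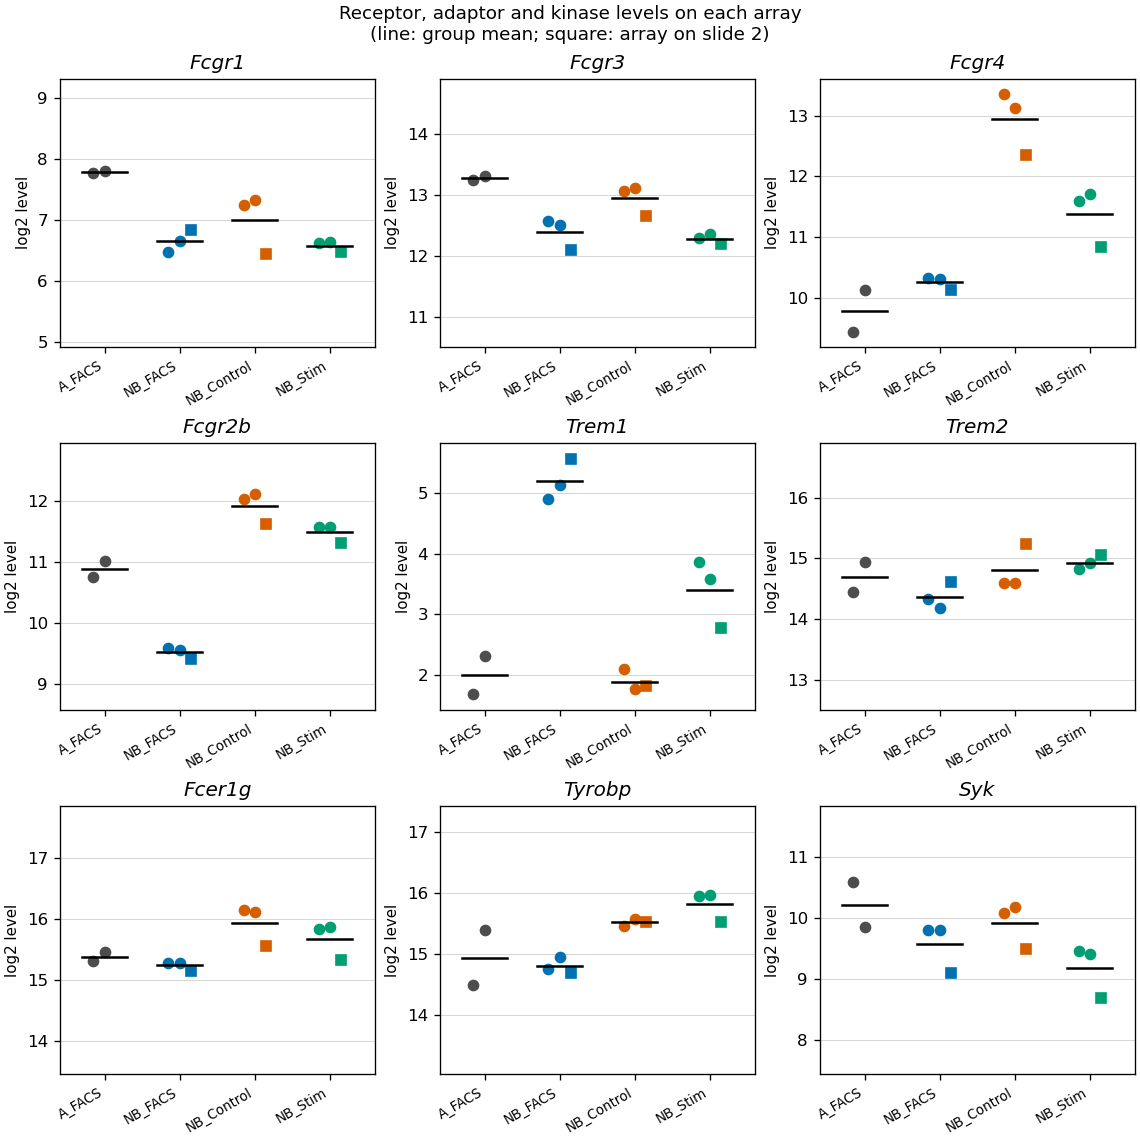
Log2 level of the 9 measured genes (vertical axis, a span that differs between genes) on each of the 11 arrays by group, with group means as lines and slide 2 arrays as squares. Fcgr4 and Fcgr2b stood highest in NB_Control and Trem1 in NB_FACS, while Trem2 lay between 14.18 and 15.23 on all arrays.

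Among the activating receptors, Fcgr4, which binds IgG2 subclasses, moved most. Its level was 10.33, 10.32 and 10.14 on the NB_FACS arrays and 13.36, 13.13 and 12.36 on the NB_Control arrays. It was 11.60, 11.71 and 10.84 in NB_Stim, and 9.45 and 10.13 in A_FACS. The 3 newborn groups were thus fully separated, with NB_Stim between the others, and both adult arrays lay lowest. NB_Control exceeded NB_FACS by 2.69 on the log2 scale (SE 0.31, 95% interval 2.00 to 3.39, 6.46-fold, adjusted p = 0.000155). Within slide 1 this difference was 2.92 and within slide 2 it was 2.22.

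With cytokines Fcgr4 fell by 1.57 from NB_Control to NB_Stim (SE 0.31, 2.97-fold, adjusted p = 0.0248), with -1.59 on slide 1 and -1.53 on slide 2. NB_Stim still exceeded NB_FACS by 1.12 (SE 0.31, 2.18-fold, adjusted p = 0.0205). Both of these calls were fragile. The fall lost its call without NB_Control replicate 1 or 2 or any 1 NB_Stim array (adjusted p 0.0503 to 0.102), and the excess over NB_FACS without NB_FACS replicate 2 or 3 or NB_Stim replicate 1 or 2 (0.0514 to 0.0768). With slide as a block the fall had an adjusted p of 0.00294 and the excess one of 0.00252.

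Adult Fcgr4 did not pass against NB_FACS (log2 difference -0.47, 95% interval -1.25 to 0.31, adjusted p = 0.383). It was 3.16 lower than in NB_Control on the log2 scale (log2 difference -3.16, SE 0.35, 8.93-fold, adjusted p = 9.47e-05). Against NB_Stim the difference was -1.59 (SE 0.35, 3.01-fold, adjusted p = 0.00518), and without A_FACS replicate 1 it was -1.25 with an adjusted p of 0.0714.

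Fcgr1 encodes the high-affinity IgG receptor and was highest in the adults. A_FACS arrays read 7.78 and 7.80, against 6.47, 6.65 and 6.84 in NB_FACS. NB_Control read 7.25, 7.33 and 6.44, and NB_Stim 6.63, 6.64 and 6.47. Both adult arrays lay above all newborn arrays, and the newborn groups overlapped. The adult excess was 1.14 over NB_FACS (SE 0.25, 2.2-fold, adjusted p = 0.00957), 0.79 over NB_Control (SE 0.25, 1.72-fold, adjusted p = 0.0295) and 1.21 over NB_Stim (SE 0.25, 2.31-fold, adjusted p = 0.00374).

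Leaving out an adult array left the Fcgr1 excess over NB_FACS at 1.14 or 1.15, with adjusted p-values of 0.0634 without replicate 1 and 0.0502 without replicate 2, and 0.125 and 0.107 against NB_Control. NB_Control against NB_FACS did not pass (0.35, adjusted p = 0.28), and its sign differed between the slides, 0.73 on slide 1 and -0.39 on slide 2. Without NB_Control replicate 3 that difference was 0.63 (adjusted p = 0.0124) and NB_Stim lay 0.70 below NB_Control (log2 difference -0.70, adjusted p = 0.0454).

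Fcgr3 encodes the low-affinity activating receptor that microglia carry in quantity. It read 13.26 and 13.32 in A_FACS, 12.58, 12.52 and 12.11 in NB_FACS, 13.07, 13.12 and 12.66 in NB_Control, and 12.30, 12.37 and 12.20 in NB_Stim. NB_Control lay above NB_FACS and NB_Stim on every array, and the adults lay above all. The rise from NB_FACS to NB_Control was 0.55 (SE 0.17, 1.47-fold, adjusted p = 0.0346), and 0.55 on each slide. It lost its call without NB_Control replicate 1 or 2, NB_FACS replicate 2 or 3, or NB_Stim replicate 1 or 2 (log2 differences 0.41 to 0.61, adjusted p 0.051 to 0.13). Without A_FACS replicate 1, where the dim probe MMXS43008 was averaged in, the rise was 0.50.

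The Fcgr3 difference between NB_Stim and NB_Control was -0.66 (95% interval -1.05 to -0.28) and missed the threshold (adjusted p = 0.0744). It passed with the replicate number as a block (adjusted p = 0.0141), with slide as a block (0.00603), and without NB_Control replicate 3 (0.0402) or NB_FACS replicate 3 (0.0462). Adult Fcgr3 exceeded NB_FACS by 0.89 (SE 0.19, 1.85-fold, adjusted p = 0.00879) and NB_Stim by 1.00 (SE 0.19, 2.00-fold, adjusted p = 0.00244). Without A_FACS replicate 1 these were 0.62 and 0.68. The dim probe MMXS43008 then passed the filter through the 1 adult array left and was averaged in. With both adult arrays and no filter on dim probes they were 0.71 and 0.77.

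**Figure D2:**
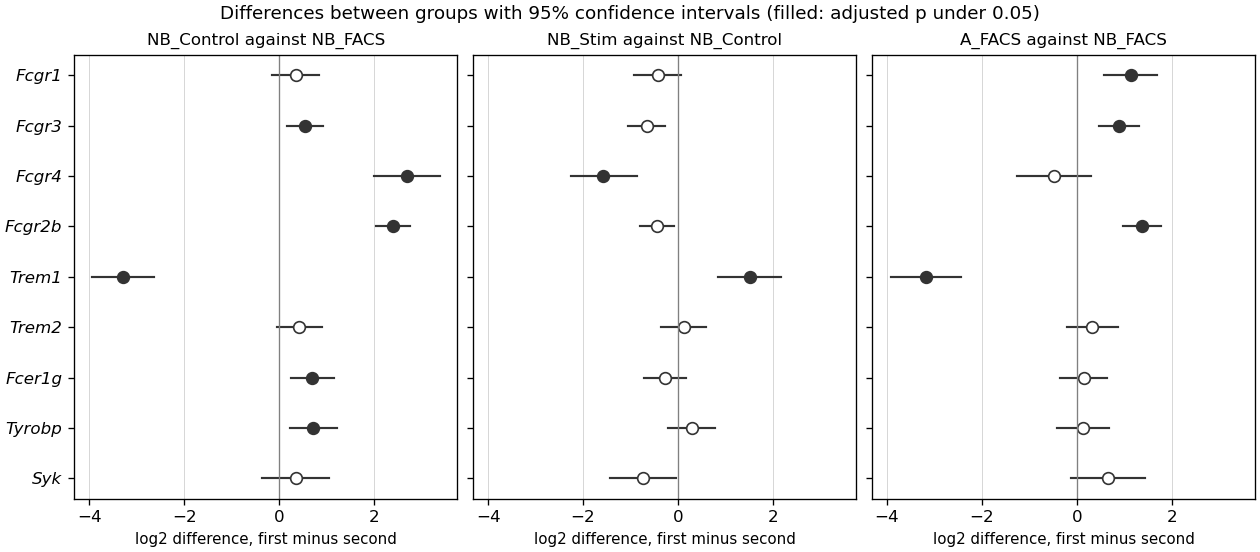
Log2 difference of each gene (points, first group minus second, horizontal axis) with its 95% confidence interval in 3 comparisons, filled where the adjusted p was under 0.05. Fcgr4 and Fcgr2b rose by 2.69 and 2.41 in NB_Control against NB_FACS. Trem1 is drawn with its fitted difference, which is not counted as a call.

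Fcgr2b, the sole inhibitory receptor of the family, was lowest in freshly sorted newborn cells. The NB_FACS arrays read 9.59, 9.56 and 9.41. A_FACS read 10.76 and 11.02, NB_Stim 11.58, 11.57 and 11.32, and NB_Control 12.03, 12.12 and 11.63. No 2 groups overlapped. NB_Control exceeded NB_FACS by 2.41 (SE 0.16, 95% interval 2.05 to 2.77, 5.32-fold, adjusted p = 6.17e-06), with 2.50 on slide 1 and 2.22 on slide 2.

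NB_Stim exceeded NB_FACS by 1.97 (SE 0.16, 3.92-fold, adjusted p = 2.02e-05), and A_FACS did so by 1.37 (SE 0.18, 2.59-fold, adjusted p = 0.000705). These 3 differences passed under each of the 12 alternatives and without any 1 of the 11 arrays. The 2 probes of Fcgr2b gave 2.34 and 2.48 for NB_Control against NB_FACS.

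Between the cultures Fcgr2b differed by -0.44 (95% interval -0.80 to -0.08, adjusted p = 0.221), which did not pass, although slide as a block gave an adjusted p of 0.045. The adult level was below both cultures, by -1.04 on the log2 scale against NB_Control (SE 0.18, 2.05-fold, adjusted p = 0.00141) and by -0.60 against NB_Stim (SE 0.18, 1.51-fold, adjusted p = 0.0254). The latter lost its call without A_FACS replicate 1 or NB_Stim replicate 1 or 2 (adjusted p 0.072 to 0.193).

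To set the inhibitory receptor against its activating relatives, the mean log2 level of Fcgr1, Fcgr3 and Fcgr4 was subtracted from that of Fcgr2b on each array. Probes differ in brightness, so the quantity has no meaningful zero and serves only to compare arrays. It was -0.20, -0.27 and -0.29 in NB_FACS, 0.59 and 0.60 in A_FACS, 0.81, 0.92 and 1.14 in NB_Control, and 1.40, 1.33 and 1.48 in NB_Stim. The 4 groups did not overlap. NB_Stim stood above NB_Control on this quantity although its Fcgr2b level was lower, since the mean log2 differences of Fcgr4 and Fcgr3 (-1.57 and -0.66) were larger than that of Fcgr2b (-0.44), while that of Fcgr1 was -0.42. No test was run on it.

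**Figure D3:**
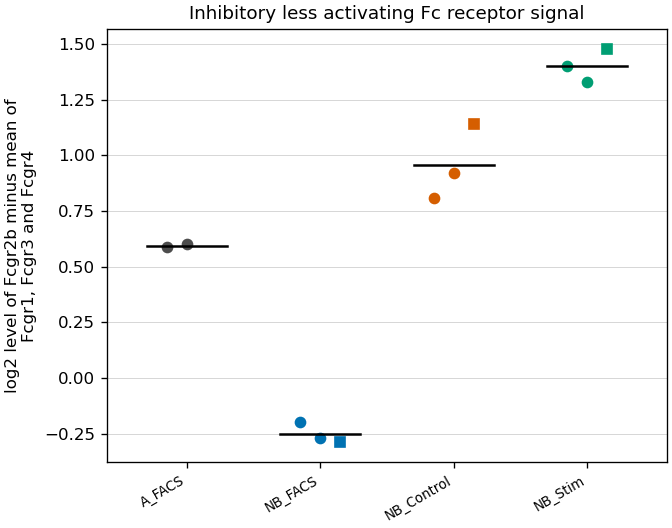
Log2 level of Fcgr2b minus the mean of Fcgr1, Fcgr3 and Fcgr4 (vertical axis) on each array by group, with group means as lines and slide 2 arrays as squares. NB_FACS lay lowest, at -0.29 to -0.20, and NB_Stim highest, at 1.33 to 1.48.

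Trem1, an amplifier of inflammatory responses in myeloid cells, was highest in freshly sorted newborn cells. Its level was 4.89, 5.13 and 5.55 in NB_FACS, 3.86, 3.58 and 2.78 in NB_Stim, 1.70 and 2.32 in A_FACS, and 2.10, 1.77 and 1.82 in NB_Control. It was well above background on 3 of 3 NB_FACS arrays, 2 of 3 NB_Stim arrays, 1 of 2 A_FACS arrays and 0 of 3 NB_Control arrays. It passed the filter through NB_FACS alone, so its entry into the fit already required a high level there, and its differences from NB_FACS are given as a description with no test.

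Trem1 in NB_Control lay below NB_FACS by a log2 difference of -3.29. Counting NB_Control as no lower than the weakest signal well above background on its arrays, Trem1 was at least 3.37-fold higher in NB_FACS. The log2 difference from NB_FACS was -3.18 in A_FACS and -1.79 in NB_Stim. No fold is given for these, since most readings of the 2 probes were not well above background in either group.

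NB_FACS replicate 3, the array with the high mean of neutrophil markers, also had the highest Trem1. Without it the log2 differences from NB_FACS were -3.08 for NB_Control, -2.97 for A_FACS and -1.60 for NB_Stim. On the other 2 NB_FACS arrays the neutrophil list averaged 5.6 and 4.99, neither above the 5.16 to 6.34 of the other groups, while Trem1 read 4.89 and 5.13. The mean level of 8 measured monocyte markers, of 9 listed, was 6.08, 6.24 and 6.57 in NB_FACS, in the same order as Trem1. It was 5.68, 5.85 and 6.03 in NB_Control, 5.31, 5.14 and 5.47 in NB_Stim, and 5.68 and 6.69 in A_FACS. On this mean all NB_FACS arrays thus lay above all cultured arrays and within the range of the adult ones. The single markers went both ways. Of 7 tested, 2 were higher and 2 lower in NB_Control than in NB_FACS by limma's test, where 29.7% of all genes passed. In NB_Stim against NB_FACS 1 was higher and 4 were lower, where 31.1% of all genes passed. The part of monocytes in the Trem1 level was not tested.

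With cytokines all 3 NB_Stim arrays read above all 3 NB_Control arrays for Trem1, by a mean log2 difference of 1.51 (adjusted p = 0.0229). It is not counted as a call or given a fold, because NB_Control had no reading well above background and the bound set by the weakest measured signals was under 1. With normexp background correction the difference was 0.22 (adjusted p = 0.218), and without any 1 NB_Control array or NB_Stim replicate 1 or 2 the adjusted p was 0.0582 to 0.0936. The probes differed, with 2.10 for MMXS31605 and 0.91 for MMXS29013. A_FACS differed from NB_Stim by -1.40 and from NB_Control by 0.11 on the log2 scale, mostly between readings below the measurable range, and the former was -0.18 with normexp.

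**Figure D4:**
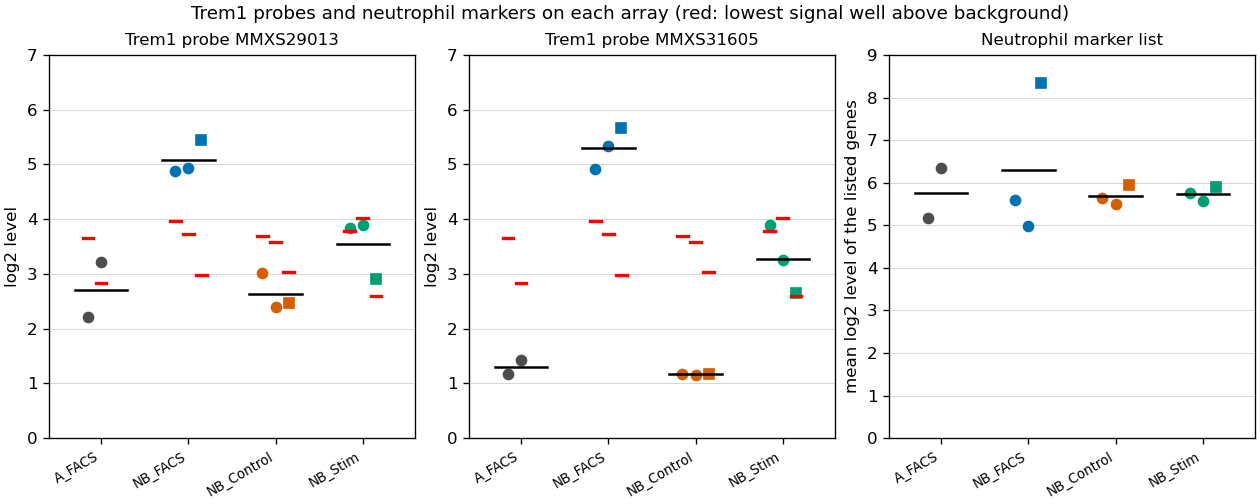
Log2 level of the 2 Trem1 probes used (left and middle) and mean log2 level of 11 neutrophil markers (right) on each array by group, with group means as black lines, slide 2 arrays as squares and, in red, the weakest signal well above background on that array. Both probes stood above the red marks in NB_FACS and below them in NB_Control, and the neutrophil list mean was high on NB_FACS replicate 3 only, at 8.34.

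Trem2 was bright in every group and passed in none of the 6 comparisons. It read 14.45 and 14.94 in A_FACS, 14.33, 14.18 and 14.61 in NB_FACS, 14.60, 14.60 and 15.23 in NB_Control, and 14.82, 14.92 and 15.05 in NB_Stim. The widest gap between group means, NB_Stim over NB_FACS, was 0.56 (95% interval 0.08 to 1.03, adjusted p = 0.0747), and these 2 groups did not overlap. It passed with the replicate number as a block (adjusted p = 0.0224), with slide as a block (0.0164) and without NB_Control replicate 3 (0.0363). NB_Control over NB_FACS was 0.43 (95% interval -0.04 to 0.91, adjusted p = 0.165, and 0.0487 with slide as a block), and A_FACS over NB_FACS was 0.32 (-0.21 to 0.86, adjusted p = 0.377). Trem2 rested on 1 probe, so its transcript variants were not told apart.

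The adaptors gave bright signals, and both rose in NB_Control against NB_FACS, while Tyrobp alone passed in NB_Stim as well. Tyrobp, the adaptor of the TREM receptors, read 14.76, 14.95 and 14.69 in NB_FACS, 15.47, 15.58 and 15.53 in NB_Control, 15.95, 15.97 and 15.53 in NB_Stim, and 14.49 and 15.39 in A_FACS. All cultured arrays lay above all sorted ones, and the 2 adult arrays lay further apart than those of any other group. NB_Control exceeded NB_FACS by 0.72 (SE 0.22, 1.65-fold, adjusted p = 0.0333), a call lost without any 1 array of either group (adjusted p 0.0571 to 0.0973).

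NB_Stim exceeded NB_FACS in Tyrobp by 1.01 (SE 0.22, 2.02-fold, adjusted p = 0.00638), and this call held without any 1 array. NB_Stim and NB_Control differed by 0.29 (95% interval -0.21 to 0.79, adjusted p = 0.641). A_FACS lay below NB_Stim by a log2 difference of -0.87 (SE 0.25, 1.83-fold, adjusted p = 0.019), which lost its call without A_FACS replicate 1 or NB_Stim replicate 1 or 2 (-0.42 without the first, adjusted p 0.0577 to 0.207). Against NB_Control the adult difference was -0.58 (adjusted p = 0.0871), and -1.03 without A_FACS replicate 2 (0.00649). With the replicate number as a block it was -0.65 (0.0375).

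Fcer1g read 15.28, 15.28 and 15.15 in NB_FACS, 16.15, 16.11 and 15.56 in NB_Control, 15.83, 15.86 and 15.32 in NB_Stim, and 15.31 and 15.45 in A_FACS. Every NB_Control array lay above every sorted array. The rise from NB_FACS to NB_Control was 0.70 (SE 0.20, 1.63-fold, adjusted p = 0.0234), with 0.85 on slide 1 and 0.41 on slide 2. It was lost without NB_Control replicate 1 or 2 or any 1 NB_FACS array (adjusted p 0.0549 to 0.093). No other Fcer1g comparison passed. NB_Stim over NB_FACS was 0.43 (adjusted p = 0.132, and 0.0264 with the replicate number as a block or 0.0355 without NB_Stim replicate 3).

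A_FACS against NB_Control was -0.56 in Fcer1g (adjusted p = 0.0714), and its adjusted p was 0.0055 with the replicate number as a block, 0.0189 without NB_Control replicate 3 and 0.04 without NB_Stim replicate 3. A_FACS against NB_Stim was -0.29 (adjusted p = 0.33), or -0.42 (0.0405) with that block.

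Syk, the kinase that docks on phosphorylated ITAMs, read 10.59 and 9.86 in A_FACS, 9.81, 9.81 and 9.10 in NB_FACS, 10.09, 10.18 and 9.49 in NB_Control, and 9.47, 9.41 and 8.69 in NB_Stim. In each newborn group the array on slide 2 was lowest. NB_Stim against NB_Control was -0.73 (95% interval -1.43 to -0.03, adjusted p = 0.304), with -0.70 on slide 1 and -0.80 on slide 2. It passed with the replicate number (0.0418) or slide (0.0335) as a block. NB_Control against NB_FACS was 0.35 (95% interval -0.35 to 1.05, adjusted p = 0.464).

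Syk passed in 1 comparison, A_FACS over NB_Stim, by 1.04 (SE 0.35, 2.06-fold, adjusted p = 0.0383). That call was lost without A_FACS replicate 1 (0.68, adjusted p = 0.303), NB_Control replicate 1, or NB_Stim replicate 2 or 3 (0.0526 to 0.093). Its 3 probes all gave an adult excess, 1.13, 0.81 and 1.19.

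The order of the groups differed from gene to gene. Fcgr4 fell in the order NB_Control, NB_Stim, NB_FACS and A_FACS, with the last step not passing (0.47, adjusted p = 0.383). Fcgr2b ran from NB_Control through NB_Stim and A_FACS to NB_FACS, with the first step not passing (0.44, adjusted p = 0.221). Fcgr1 and Fcgr3 ran from A_FACS through NB_Control and NB_FACS to NB_Stim. Of their steps, A_FACS to NB_Control passed in Fcgr1 and NB_Control to NB_FACS in Fcgr3. Trem1 was highest in NB_FACS, and the order of the other groups is not given because their readings lay largely below the measurable range. No step between neighbours passed in Trem2, Fcer1g, Tyrobp or Syk.

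The 2 genes whose levels moved most like each member were found by the root mean square difference of centred log2 levels over the 11 arrays, among 19554 other genes. For Fcgr4 these were Stap1 (0.345), a signalling adaptor, and Lilrb4a (0.347), an ITIM-bearing receptor. For Fcgr2b they were Dbndd2 (0.232) and Crim1 (0.234). For Trem1, whose readings outside NB_FACS lay largely below the measurable range, they were Slc43a3 (0.547) and Apln (0.566).

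The other pairs were Isg20 and Tk2 for Fcgr1 (0.139 and 0.19), Dglucy and Appl2 for Fcgr3 (0.0881 and 0.145), and Rnf157 and Gm31088 for Trem2 (0.145 and 0.146). Gatd1 and Micu2 followed Fcer1g (0.0979 and 0.108), 9130023H24Rik and Vps13c followed Tyrobp (0.152 and 0.159), and Tsga10 and Farp2 followed Syk (0.187 and 0.191). A gene that varies little finds close matches easily, so the distances are not comparable between members.

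Related genes were counted in 8 lists, and each share below is to be read against all genes tested, of which 29.7% passed in NB_Control against NB_FACS, 3.41% in NB_Stim against NB_Control and 22.7% in A_FACS against NB_FACS. With the replicate number as a block these shares of all genes were 37.5%, 6.1% and 31%. Genes that passed the filter only through a group where they were high were not counted apart in the lists. Many other receptors share these adaptors. Of 26 listed receptors that pair with Tyrobp or Fcer1g, 21 were tested. In NB_Control against NB_FACS, 12 rose and 3 fell (71.4% called), with a median log2 difference of 0.81 against 0.09 over all genes. The rises include Sirpb1b (7.50 against 1.89) and Sirpb1a (6.76 against 2.06). Both lay under the weakest signals well above background in the sorted groups (2.98 to 3.97 in NB_FACS). They thus entered the fit through cultured groups, where they were high, and their rises are a description only. The C-type lectins Clec4d (15.17 against 8.44, log2 difference 6.73, adjusted p = 1.87e-06) and Clec4n (12.55 against 6.16, 6.40, adjusted p = 2.83e-07), which bind microbial glycans, rose most. Siglech, a Tyrobp-coupled microglial lectin, fell most (4.09 against 9.67, -5.58, adjusted p = 1.59e-07), followed by Treml2 (3.84 against 5.46, -1.62, adjusted p = 0.00202). Their NB_Control levels lay near the weakest signals well above background on those arrays (3.03 to 3.69).

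With cytokines 0 of these receptors rose and 2 fell (9.52%) by limma's test, Pira2 (-3.48, adjusted p = 0.000601) and Clec4n (-2.86, adjusted p = 0.000251), and 7 had an unadjusted p under 0.05. With the replicate number as a block 6 passed. In A_FACS against NB_FACS 5 rose and 4 fell (42.9%), led by the integrin chain Itgb2 (1.58, adjusted p = 0.00109) and Siglech (1.33, adjusted p = 0.00142) upward and by Clec4d (-4.80, adjusted p = 6.38e-05) and Clec4e (-2.42, adjusted p = 0.0205) downward. Clec4d was well above background on 1 of the 2 adult arrays.

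Fcgr2b has functional relatives among the ITIM-bearing receptors, of which 13 of 15 were tested. In NB_Control against NB_FACS 4 rose and 5 fell (69.2%), with a median log2 difference of -0.36. Pirb (10.33 against 6.64, 3.69, adjusted p = 1.72e-06) and Cd72 (3.23, adjusted p = 2.17e-05) rose most, and Pecam1 (-2.08, adjusted p = 0.0164) and Cd33 (-1.79, adjusted p = 5.54e-05) fell most. With cytokines 5 fell and 0 rose (38.5%), with 6 at an unadjusted p under 0.05, led by Pirb (6.76 against 10.33, -3.57, adjusted p = 2.69e-05) and Clec4a2 (4.80 against 8.35, -3.55, adjusted p = 6.41e-05). In A_FACS against NB_FACS 5 passed (38.5%), of which 4 rose, led by the collagen receptor Lair1 (1.46, adjusted p = 0.000472) and Siglece (1.06, adjusted p = 0.00909), and Lilrb4a fell (-0.95, adjusted p = 0.0251).

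Kinases and phosphatases that act on ITAMs sit between receptor and Syk. Of 12 listed, 11 were tested, and in NB_Control against NB_FACS 7 passed (63.6%), of which 1 rose, Lck (0.70, adjusted p = 0.00441), and 6 fell, among them Fyn (-1.05, adjusted p = 0.00258). With cytokines 2 fell (18.2%), among them Ptpn22 (-1.56, adjusted p = 0.00356), and 0 rose, with 3 at an unadjusted p under 0.05. In A_FACS against NB_FACS 4 passed (36.4%), of which 3 rose, among them Ptprc (1.22, adjusted p = 0.0029), which encodes the CD45 used for sorting, and Fyn fell (-1.41, adjusted p = 0.00155).

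Downstream of Syk, 24 of 27 listed genes were tested. In NB_Control against NB_FACS 9 passed (37.5%), of which 8 fell, led by Malt1 (-1.92, adjusted p = 0.000894) and Plcg1 (-1.31, adjusted p = 0.00389), and 1 rose, Lat2 (0.66, adjusted p = 0.0212). With cytokines 1 passed (4.17%), the phospholipase Plcg2, which was higher (12.84 against 12.07, 0.77, adjusted p = 0.0467), and 4 passed with the replicate number as a block. In A_FACS against NB_FACS 8 passed (33.3%), of which 7 rose, led by Pik3r1 (1.25, adjusted p = 0.0282) and Nfatc1 (1.1, adjusted p = 0.0108), and Lat fell (-0.98, adjusted p = 0.0272). That count of 8 became 13 with the replicate number as a block.

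Of 15 genes that restrain ITAM signalling, 12 were tested. In NB_Control against NB_FACS 4 passed (33.3%, near the share of all genes), of which 3 rose, led by Dok1 (0.80, adjusted p = 0.0105) and Inppl1 (0.68, adjusted p = 0.0168), and the lipid phosphatase Inpp5d fell (-0.79, adjusted p = 0.0231). With cytokines 1 passed (8.33%), Dok2, which fell (-0.59, adjusted p = 0.0388), and 3 passed with the replicate number as a block. Adults against newborns, A_FACS against NB_FACS, had 3 rises (25.0%, also near the share of all genes), led by Ubash3b (1.18, adjusted p = 0.000417) and Inpp5d (0.93, adjusted p = 0.0238).

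**Figure D5:**
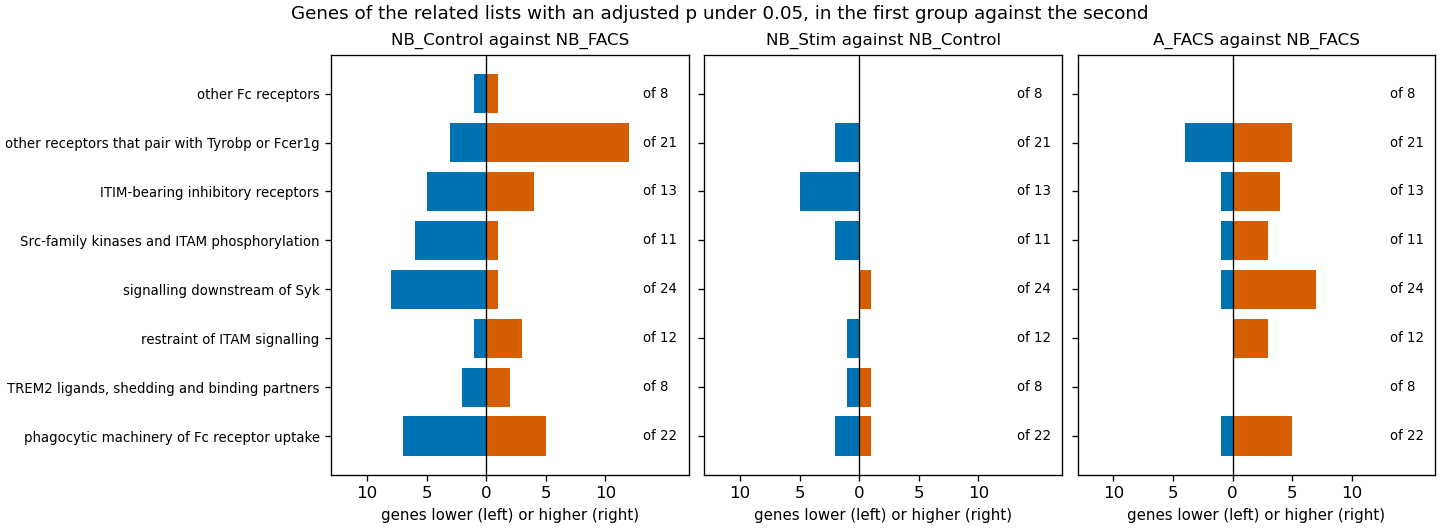
Number of genes of each list with an adjusted p under 0.05 in 3 comparisons, lower genes to the left and higher genes to the right of 0, with the number tested at the right edge. In NB_Control against NB_FACS the adaptor-pairing receptors had 12 higher and 3 lower, and the genes downstream of Syk 1 higher and 8 lower, where 29.7% of all genes passed.

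For Trem2, 8 of 10 listed ligands, sheddases and partners were tested, and 4 passed in NB_Control against NB_FACS (50%). Plxna1, a plexin that associates with Trem2 and Tyrobp, was 12.67 in NB_Control and 7.59 in NB_FACS (5.08, adjusted p = 2.3e-06), and Ms4a6d also rose (2.44, adjusted p = 7.2e-06). Cd33 (-1.79) and the sheddase Adam10 (-0.47, adjusted p = 0.0101) fell. With cytokines 2 passed (25.0%). Adam10 was higher (0.71, adjusted p = 0.00856) and Ms4a6d lower (-1.05, adjusted p = 0.00887). In A_FACS against NB_FACS 0 of 8 passed by limma's test, with 2 at an unadjusted p under 0.05 and 1 called with the replicate number as a block.

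The phagocytic machinery of Fc receptor uptake split in NB_Control against NB_FACS, with 5 of 22 tested genes higher and 7 lower (54.5% called). Cybb, the catalytic subunit of the phagocyte oxidase, was 14.01 in NB_Control and 9.40 in NB_FACS (4.62, adjusted p = 0.000644), and the oxidase subunit Ncf4 also rose (1.12, adjusted p = 0.000114). The small GTPase Arf6 (-1.47, adjusted p = 0.000255) and Elmo1 (-1.11, adjusted p = 0.00958) fell. With cytokines 3 passed (13.6%). Ncf1 was higher (0.56, adjusted p = 0.0369) and Myo1g (-0.99, adjusted p = 0.0084) and Ncf4 (-0.77, adjusted p = 0.00885) lower, and 5 passed with the replicate number as a block. Of the same genes 6 passed in A_FACS against NB_FACS (27.3%), of which 5 rose, led by Elmo1 (1.24, adjusted p = 0.0137) and Ncf4 (0.89, adjusted p = 0.00158), and Cyba fell (-0.51, adjusted p = 0.0394).

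Of 13 other Fc receptors, 8 were tested, and 2 passed in NB_Control against NB_FACS (25.0%, near the share of all genes). The cytosolic antibody receptor Trim21 rose (1.73, adjusted p = 0.000735) and Fcrls, an Fc receptor-like gene typical of microglia, fell (14.56 against 15.98, -1.42, adjusted p = 0.0165). By limma's test 0 passed with cytokines and 0 in A_FACS against NB_FACS, each with 3 at an unadjusted p under 0.05 and 2 called with the replicate number as a block.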

How the data were processed

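The deposited scanner files give a background-subtracted signal intensity per spot, which the authors obtained with Agilent Feature Extraction 11.5.1.1 from Cy3-labelled RNA. The deposited series-wide table, which holds processed values of the same arrays without probe names, was not used. Here, spots with an outlier flag and 1439 control spots were left out, repeated spots were averaged on the log2 scale, and the 60037 probes, less 138 flagged at every spot of at least 1 array, were quantile normalised in limma 3.58.1 (R 4.3.3). RefSeq accessions matched 36264 probes (60.4%) to 23329 symbols of GRCm38.p6. A probe was kept where all arrays of some group had it well above background, and probes were averaged per gene (19555 genes). No spot was saturated.

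Groups came from the sample titles, and the study describes its replicates as independent. Cultured replicates 1 and 2 were closer to each other over all genes (SD of differences 0.262 in NB_Control, 0.295 in NB_Stim) than to replicate 3 (0.565 to 0.701). In NB_FACS these were 0.395 against 0.567 and 0.697. Replicate 3 lay on the other slide, so the arrays cannot tell whether replicates 1 and 2 are independent. One alternative therefore averaged them in the cultures. One mean per group was fitted over all 4 groups (7 residual degrees of freedom), all 6 pairs of groups were compared by limma (moderated test, two-sided), and p-values were adjusted by Benjamini-Hochberg over all genes within a comparison, with calls under 0.05. Intervals are 95% and unadjusted. The code was tested on simulated data.

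Members, gene lists and markers were chosen with earlier results of these data known. All members are named, with up to 2 called rises and 2 called falls per list in 3 comparisons and the 2 most similar genes per member. One gene that this rule names is not reported here. Same-numbered arrays of the 3 newborn groups deviated together from their group means (r 0.112 to 0.489 over 9 pairs), but so did differently numbered arrays on slide 1 (0.185 to 0.364), and replicate 3 is also slide 2, so number and slide cannot be told apart. The adult arrays showed no such pairing (-0.069 to 0.168). The main fit has no block, and fits with number or slide as a block were run as alternatives. Figures used matplotlib 3.10.9.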

Additional observations from a re-analysis of the deposited data

How the results depend on the processing

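The results were recomputed under 12 alternatives and, with the filter applied again, without each of the 11 arrays. Direction and call held in all of these for Fcgr2b in NB_Control, NB_Stim and A_FACS against NB_FACS and in A_FACS against NB_Control, for Fcgr4 in NB_Control against NB_FACS and A_FACS against NB_Control, and for Fcgr1 in A_FACS against NB_Stim. Of 1236 values of members under another setting, 1088 kept direction and side of the threshold, 102 lost the threshold, 33 gained it and 13 changed sign. Trem1 is among these values.

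The number called among the 8 members other than Trem1 moved as follows, with the share of all genes in parentheses. For NB_Stim against NB_Control (1 as reported) it was 3 with 75th percentile scaling (4.63%) and 4 with slide as a block (7.55%). It was 1 with the brightest probe of a gene (3.73%) and with probes well above background on every array (4.38%). It was 0 with only the groups compared (2.33%) and with cultured replicates 1 and 2 averaged (0.603%). Tukey's test after Benjamini-Hochberg adjustment also gave 0 (0.936%). For NB_Control against NB_FACS (5 as reported) it was 2 with that Tukey's test (18.1%) and with the averaged replicates (20.8%). A log2 difference of at least 1 also gave 2 (16.2%). For A_FACS against NB_Control (3 as reported) it was 5 with 75th percentile scaling (41.5%) and with normexp (41%). For A_FACS against NB_Stim (6 as reported) it was 2 with Tukey's test (23.8%). It was 3 there with the averaged replicates (29.2%) or only the groups compared (32.7%). Tukey's test gave 1 for NB_Stim against NB_FACS (3 as reported, 18.5%). It also gave 1 for A_FACS against NB_FACS (3 as reported, 10.3%). Leaving out 1 newborn array gave 2 to 5 for NB_Control against NB_FACS (23% to 33%). It gave 0 to 3 for NB_Stim against NB_Control (1.51% to 3.51%) and 2 to 4 for NB_Stim against NB_FACS (23.7% to 33.6%). For A_FACS it gave 3 against NB_FACS (17.6% to 26.2%) and 3 to 4 against NB_Control (33.6% to 44.5%). A_FACS against NB_Stim had 3 to 6 (32.6% to 42.8%). The ranges in the next sentence count Trem1 as well and include fits with 1 adult array. Leaving out 1 array gave 3 to 6, 0 to 3, 3 to 5, 2 to 4, 2 to 4 and 1 to 7 members for NB_Control against NB_FACS, NB_Stim against NB_Control, NB_Stim against NB_FACS, and A_FACS against NB_FACS, NB_Control and NB_Stim.

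Signs changed only in differences that were not called. With 75th percentile scaling A_FACS against NB_FACS was -0.01 for Trem2, -0.17 for Fcer1g and -0.22 for Tyrobp. With the brightest probe Syk was -0.06 in A_FACS against NB_Control. Leaving out 1 array gave -0.16 to 0.02 for Fcgr1 in NB_Stim against NB_FACS, -0.31 to 0.59 for Tyrobp in A_FACS against NB_FACS, and -0.48 to 0.01 for Trem2 in A_FACS against NB_Stim. In A_FACS against NB_Control it gave -0.21 to 0.43 for Trem1, -0.35 to 0.14 for Trem2 and -0.06 to 0.68 for Syk. The cause was not tested.

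With the replicate number as a block, 3 of the 8 members other than Trem1 passed in NB_Stim against NB_Control (6.1% of all genes). In A_FACS against NB_Control 5 passed (49.5%). Trem2 in A_FACS against NB_Control was 0.02 with slide as a block, and also with the replicate number. Apart from the values given beside the results, this block changed no other call of a member.

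Over all genes, 666 passed in NB_Stim against NB_Control, against 1193 with the replicate number as a block, 1476 with slide as a block, 1009 with normexp, 118 with the averaged replicates, 183 with Tukey's test after adjustment, 1590 without it and 425 at a log2 difference of at least 1. At that minimum the count fell from 5811 to 3159 in NB_Control against NB_FACS, from 6082 to 3215 in NB_Stim against NB_FACS, from 4434 to 2407 in A_FACS against NB_FACS, from 7982 to 4801 in A_FACS against NB_Control and from 7869 to 4536 in A_FACS against NB_Stim. Tukey's test after adjustment gave 3547, 3620, 2014, 4881 and 4654 for these 5, and A_FACS against NB_FACS had 2923 with only the groups compared. Trem1 lay near the weakest measurable signals outside NB_FACS, which limits its differences among the other groups.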
